A study of Homo sapiens with 12 samples.

Results

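UPF1, the RNA helicase at the centre of nonsense-mediated decay (NMD), was depleted in 293A-TOA cells that kept the splicing regulator SFSWAP, and the 6 libraries compared here are the siNT and siNT/siUPF1 libraries, 6 of the 12 in the series. 293A-TOA is a HEK293A line, of the human embryonic kidney HEK293 lineage, and all cells compared received non-target siRNA and, for the last 6 hr, 1 μM TG, an inhibitor of the enzyme that removes O-GlcNAc from proteins. In the siNT/siUPF1 group (n = 3 biological replicates), siRNA against UPF1 at 30 nM was added to the non-target siRNA, and by the labels the harvest came 5 days after transfection, as in the siNT group (n = 3 biological replicates). The study's methods describe a shorter growth for knockdowns other than that of SFSWAP, so that the time for UPF1 is uncertain. In the other 2 groups, siSFSWAP and siSFSWAP/siUPF1 (n = 3 each), siRNA against SFSWAP at 40 nM took the place of the non-target siRNA, and these libraries serve below only to set the same UPF1 knockdown beside its effect in SFSWAP-depleted cells. The amount of non-target siRNA is not given in the sources used here, a single cell line was used, and siRNA leaves residual UPF1. No batch is labelled, and whether the siUPF1 libraries were prepared or sequenced apart from the others is not given, so that such a batch and the knockdown cannot be told apart.

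The measurements are splicing events: a skipped exon event counts, in each polyA RNA library, the reads of the form that includes an exon and of the form that skips it, and a retained intron event does the same for an intron. The inclusion level of an event is the share of the including form after each form is divided by its effective length, so that it runs from 0 to 1. The comparison was made at the 64303 skipped exon and 5021 retained intron events that had the same gene, strand and coordinates in the tables without and with siUPF1, of 115209 and 110136 skipped exon and 10576 and 9652 retained intron events listed. Of these, 28261 skipped exon events in 7248 genes and 3034 retained intron events in 1892 genes averaged 10 or more reads in each library, with 10 or more of each form summed over the 6 libraries, and were tested. Events are not independent, because 1 read can count at several events of a gene, and the 28261 skipped exon events hold 25389 distinct exons.

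Nonsense-mediated decay degrades mRNAs on which the ribosome stops upstream of an exon junction complex, and UPF1 joins the terminating ribosome to the decay enzymes. Many genes of splicing proteins carry a decoy or "poison" exon whose inclusion, or a coding exon whose skipping, brings such an early stop codon into the mRNA, and the same decay clears the spliced RNAs of several small nucleolar RNA (snoRNA) host genes. Loss of UPF1 is therefore known to let such RNAs accumulate without a change in splicing itself, and inclusion levels in polyA RNA hold both processes.

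Exons of the first kind are shown by the in-frame stop codon that each brings into the mRNA, with the exon bases beside it, since these stop codons define the group in which most of the changed exons fell. They were read from GRCh38 in the frame of GENCODE 44 coding transcripts and are written 5′ to 3′ on the strand of the gene, with the stop codon in capitals. The UQCRH stretch is from the 144 nt form of its exon.
SRSF6: gccttttgccatTAGacgcagggtgat
SNRPB: tttgtaaagctgTAGcctaaagggctc
U2AF2: TGAaatattgtgggg
SRRM1: gccTGAaccaaaatggaa
SRRM2: aggacagaacTAGaggaaatggact
LUC7L: aacatgagggaaTAAtatttacgtggc
RBM39: aactgtcaatcaTAAg
MAGOHB: gtgtttacgtgTAAttgttcaccata
DDX50: atagggttgttaTGAagatttaaacaa
UQCRH: gacTGAggctttcagtgc

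The targeted gene was checked first. Reads at UPF1 exons were 283, 354 and 249 RPM (reads scaled to the total at skipped exon events) in siNT (295 ± 53.3, SD, n = 3) and 63.4, 86.8 and 112 RPM in siNT/siUPF1 (87.4 ± 24.4, SD, n = 3), 29.6% of the siNT mean. The groups did not overlap, and the exact permutation p was 0.1, the smallest that 3 against 3 libraries can give. SFSWAP reads were at 54.3 RPM in siNT and 54.5 in siNT/siUPF1 (exact permutation p = 1), and OGT reads, from the gene of the enzyme that adds O-GlcNAc, at 215 and 226 (exact permutation p = 0.8). Of the libraries with siUPF1, number 3 kept the most UPF1 reads. Library numbers give only the place in the list of values and pair nothing between groups.

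The reads at skipped exon events ranged from 33165135 to 40637076 in siNT and from 32120531 to 35194796 in siNT/siUPF1, those at retained intron events from 2546916 to 2900632 and from 2185211 to 2531563, so that every siNT/siUPF1 library had fewer intron event reads than every siNT library. The median tested event had 111.5 reads per library for exons and 103 for introns. Skipping reads made up 13.8 to 14.1% of the reads at skipped exon events in siNT and 15.5 to 15.7% in siNT/siUPF1. siNT library 1 was the farthest from siNT/siUPF1 in gene reads. Its distance to those libraries, the median absolute log2 difference over genes, was 0.358 to 0.441, against 0.232 to 0.341 for the other siNT libraries. Within groups the distances were 0.185 to 0.289, so that the groups were not cleanly separate. siNT library 3 lay closer to siNT/siUPF1 library 2 (0.232) than to siNT library 1 (0.282). Of 8 markers of the HEK293 lineage, 3 (VIM, KRT8 and EYA1) had reads at exon events, with a sum of 1060 to 1444 RPM in siNT and 1054 to 1450 in siNT/siUPF1, while 0 of 6 colon, 0 of 4 blood and 0 of 2 liver markers had any. A gene without a matched skipped exon event gives no reads here. Absence of reads is therefore no measure of expression, and the markers are no test of cell identity.

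UPF1 knockdown changed the inclusion of 332 skipped exon events in 218 genes (a quasi-binomial test with the dispersion moderated across events, adjusted p of at most 0.05), which is 1.17% of the events tested. Inclusion rose at 220 events in 147 genes (0.778%) and fell at 112 events in 76 genes (0.396%). Exons that rose were mostly little used before the knockdown, with a median inclusion level of 0.0891 in siNT and a median gain of 0.0957, and 107 of them gained at least 0.1 and 47 at least 0.2. Exons that fell were mostly included before it, with a median of 0.919 in siNT and a median loss of −0.125, and 63 fell by at least 0.1 and 36 by at least 0.2. Over all tested events the median difference was 0.0036.

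The 3 libraries of each group did not overlap at 179 of the 220 exons that rose and 95 of the 112 that fell, where 14.1% of all tested events did not overlap (3998). The count rests on the libraries used: 129 events were called without siNT library 1 and 615 without siNT/siUPF1 library 3. It also rests on the estimate of the spread, since limma on the log2 odds called 0 of these events at the same threshold, with 2390 at an unadjusted p under 0.05. For this reason the values of the single libraries are given for most of the exons named, and means alone for the others.

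The reads of both forms were also compared. At the 220 exons that rose, inclusion reads increased by a median of 1.17 on the log2 scale and skipping reads fell by 0.52. At the 112 exons that fell, skipping reads increased by a median of 1.86 and inclusion reads fell by 0.31. The medians over all tested events were 0.06 for inclusion and −0.03 for skipping reads. These are a description, because a shift in share at constant reads gives the rarer form the larger log2 change.

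**Figure D1:**
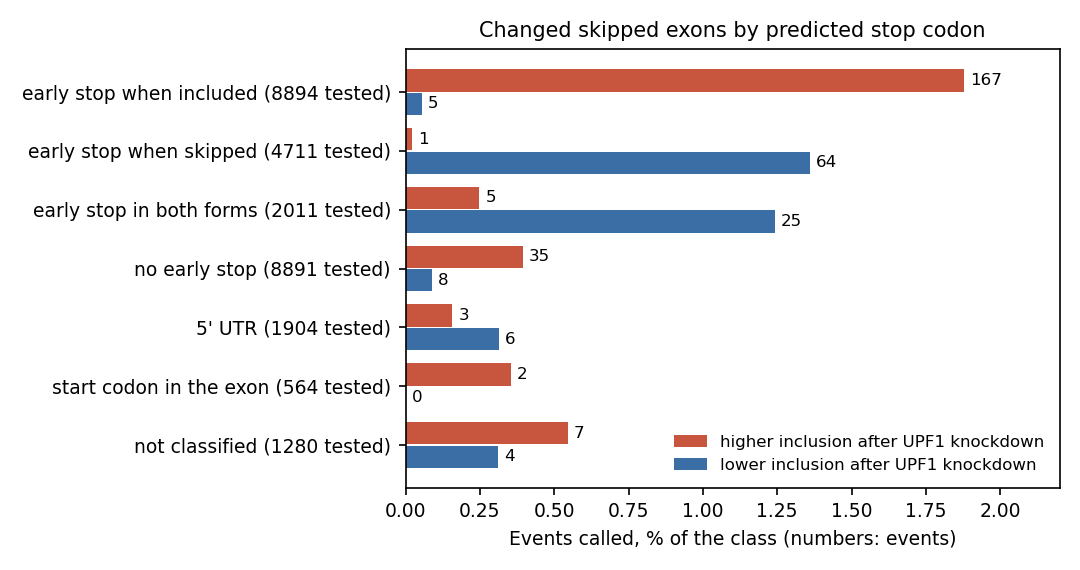
Share of skipped exon events called higher or lower in siNT/siUPF1 (x axis, % of the events of a class, with the number of events beside each bar), by the form predicted to carry an early stop codon (y axis). Exons with an early stop when included rose at 167 events and fell at 5, and exons with an early stop when skipped rose at 1 and fell at 64.

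Each exon was then placed by the form that is predicted to carry an early stop codon, more than 50 nt before the last exon junction, a property read from GENCODE 44 transcripts and GRCh38 that took no part in the calls. Among 8894 events whose including form has the early stop, 167 rose (1.88%) and 5 fell (0.0562%). Among 4711 events whose skipping form has it, 1 rose (0.0212%) and 64 fell (1.36%). Where neither form has an early stop, 35 of 8891 events rose (0.394%) and 8 fell (0.09%), and where both have one, 5 of 2011 rose and 25 fell. Of the 237 called events of the first and second class, 231 moved toward the form with the stop codon. Counted as 1 event per exon, 201 of 206 did, and among exons whose groups did not overlap, 190 of 196. The direction held for 91 of 93 called events without siNT library 1, 145 of 154 without siNT/siUPF1 library 2 and 464 of 470 without siNT/siUPF1 library 3, fits that were chosen after the data were seen.

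The same directions appear over all events of a class, called or not. Inclusion was higher in siNT/siUPF1 at 75.5% of the exons with an early stop when included (median difference 0.0106), at 60.4% of those with no early stop (median 0.0045), and at 32.2% of those with an early stop when skipped (median −0.0105). Class and starting level go together, since exons with a stop when included are mostly rare exons. Among the 2172 with a siNT inclusion level of 0.5 or above, 21 rose and 3 fell, and the remaining calls lay in the 6722 under 0.5. At that upper level, exons with no early stop were also called mostly higher, 23 up and 3 down of 6532. Of the 148 exons with an early stop when skipped and a siNT level under 0.5, 60.1% were higher, with a median difference of 0.038. Exons with an early stop in both forms were higher at 61.4% under 0.5 and at 37.7% from 0.5 up. Under 0.5 every class was mostly higher, from 54.3% to 78.6%. The split used the siNT levels that also enter the difference, which favours higher values under 0.5. These shares therefore give no direction for a class. The rest of the called events lay in the 5′ UTR (3 rose and 6 fell of 1904), held the start codon (2 rose of 564) or could not be classified (7 rose and 4 fell of 1280).

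Exon length took no part in the calls either. It is not separate from the stop codon classes, since the frame after skipping goes into the prediction of the early stop. Of the 112 exons that fell, 94 (83.9%) had a length that is not a multiple of 3, so that skipping shifts the frame, against 62.3% of the exons that rose and 60.6% of all tested events. In 133 of the 167 exons that rose with an early stop when included, the stop codon lay inside the exon itself, as TGA in 66, TAA in 36 and TAG in 31.

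**Figure D2:**
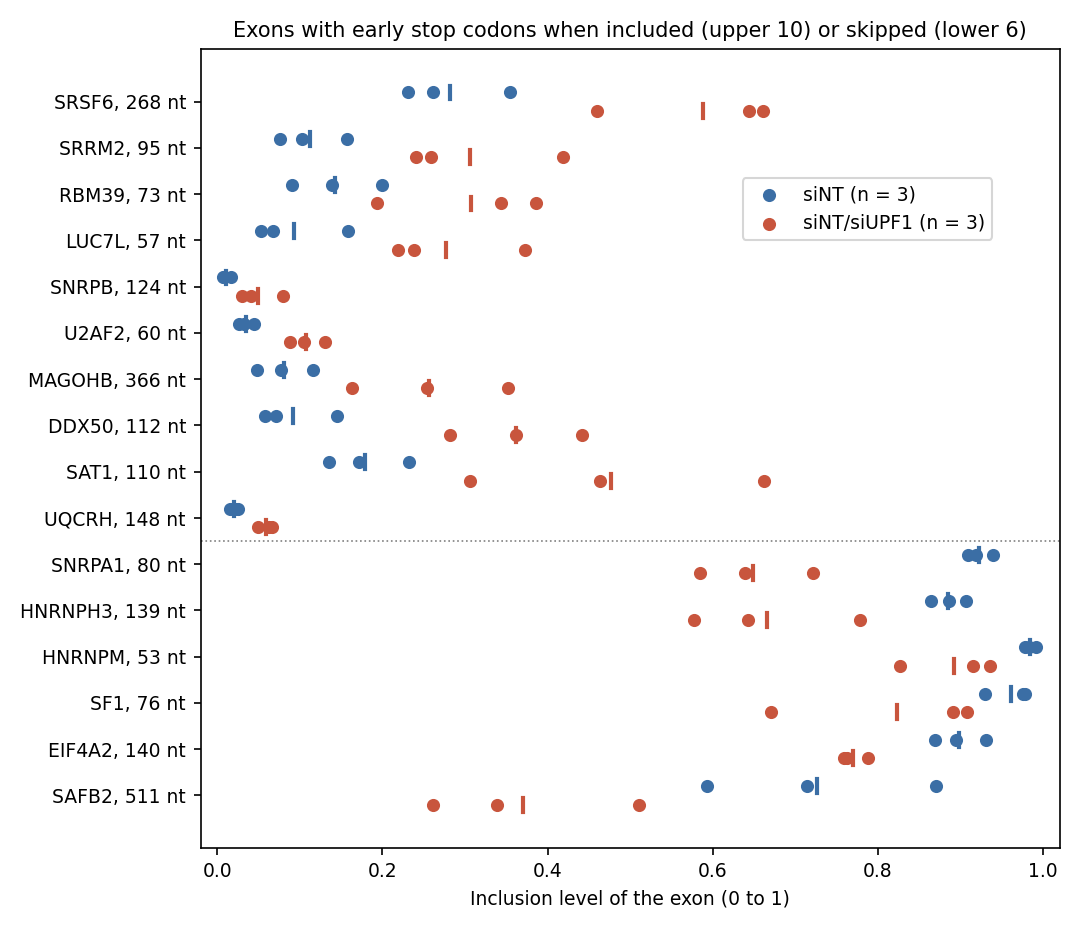
Inclusion level (x axis, 0 to 1) of 10 exons with an early stop codon when included and 6 with an early stop codon when skipped, in each siNT and siNT/siUPF1 library (points) with the group means (bars). The 268 nt SRSF6 exon rose from a mean of 0.282 to 0.588, and the 80 nt SNRPA1 exon fell from 0.922 to 0.648.

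SR proteins, which bind exonic enhancers and recruit the spliceosome, had 5 of 74 tested skipped exon events called, all higher (6.76%, against 1.17% over all events). These lay in 4 of 11 genes, against 218 of 7248 genes over all. Forms of an exon share reads, so that event shares of a list can rest on few genes. SRSF6, an SR protein with a known poison exon, had the strongest change of them. Its 268 nt exon in intron 2 (chr20:43459153-43459420) had inclusion levels of 0.231, 0.262 and 0.354 in siNT against 0.643, 0.661 and 0.460 in siNT/siUPF1 (0.282 ± 0.0642 against 0.588 ± 0.111, SD, n = 3 each). All 3 libraries with siUPF1 lay above all 3 without, with a log2 odds ratio of 1.89 ± 0.20 (SE, adjusted p = 2.17e-08). A 165 nt form of the exon rose from 0.132 to 0.341 (adjusted p = 1.97e-06).

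SRSF3, SRSF2 and SRSF7, which share the regulation by poison exons, moved less. The 456 nt SRSF3 exon in intron 3 (chr6:36599821-36600276) was at 0.0464, 0.0330 and 0.0616 in siNT against 0.0611, 0.141 and 0.0445 in siNT/siUPF1 (adjusted p = 0.0377). The 104 nt SRSF2 exon in intron 2 (chr17:76735772-76735875) was at 0.0112, 0.00756 and 0.0157 against 0.0238, 0.0381 and 0.00945 (adjusted p = 0.0426), and the 107 nt SRSF7 exon in intron 3 (chr2:38749240-38749346) at 0.0387, 0.0484 and 0.0618 against 0.0958, 0.157 and 0.0466 (adjusted p = 0.0458). In all 3 genes the groups overlapped, and siNT/siUPF1 library 3, the one with the most residual UPF1 reads, was the lowest of its group. Whether residual UPF1 has a part in that order was not tested.

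Other splicing regulators had 18 events higher and 2 lower of 334 (5.99%), in 7 of 48 genes. LUC7L, a partner of the U1 snRNP, had 1 exon of 57 nt in intron 3 (chr16:208601-208657) that rose from 0.0537, 0.0676 and 0.159 to 0.219, 0.372 and 0.238 (adjusted p = 0.000141) and 1 of 70 nt in intron 1 (chr16:228333-228402) that rose from 0.112, 0.0265 and 0.278 to 0.513, 0.758 and 0.413 (log2 odds ratio 3.17, adjusted p = 0.000918). SRRM2, a scaffold of nuclear speckles, included a 95 nt exon of intron 11 (chr16:2768505-2768599) at 0.0764, 0.103 and 0.157 in siNT against 0.241, 0.259 and 0.419 in siNT/siUPF1 (adjusted p = 4.27e-05). Both genes showed complete separation of the groups at these exons. A 67 nt exon of SRRM2 with higher use, at 0.349, 0.488 and 0.307 in siNT, reached 0.652, 0.766 and 0.721 (adjusted p = 0.000436), and it is 1 of 5 called, overlapping forms there that share reads.

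SRRM1, a coactivator that bridges SR proteins to the spliceosome, included a 130 nt exon of intron 3 (chr1:24647079-24647208) at 0.0351, 0.0712 and 0.0585 in siNT against 0.155, 0.236 and 0.133 in siNT/siUPF1 (log2 odds ratio 1.80, adjusted p = 2.25e-05). RBM39, a U2AF-related protein with its own poison exon of 73 nt in intron 2 (chr20:35740525-35740597), was at 0.0905, 0.139 and 0.199 against 0.344, 0.386 and 0.193 (adjusted p = 0.00131). SRRM1 did not overlap between groups, whereas siNT/siUPF1 library 3 lay within the siNT values at RBM39. A 155 nt exon of RBM39 moved the other way, from 0.405 to 0.239 (adjusted p = 0.0421).

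Core spliceosome genes had 6 events higher and 4 lower of 177 (5.65%), in 6 of 47 genes. SNRPA1, the A′ protein of the U2 snRNP, had the lowest adjusted p of all skipped exons: its 80 nt exon 6 (chr15:101286214-101286293) was at 0.918, 0.909 and 0.939 in siNT against 0.584, 0.640 and 0.721 in siNT/siUPF1 (0.922 ± 0.0151 against 0.648 ± 0.0688, SD, n = 3 each). The log2 odds ratio was −2.77 ± 0.23 (SE, adjusted p = 1.29e-12), with skipping reads higher by 2.29 and inclusion reads at −0.47 on the log2 scale. Skipping of this exon gives an early stop codon, as does skipping of the 76 nt exon 3 of SF1, the branchpoint-binding protein (chr11:64773430-64773505), which was at 0.978, 0.975 and 0.929 against 0.908, 0.671 and 0.891 (adjusted p = 0.00029). SNRPB, which encodes the SmB/B′ core proteins of the snRNPs, rose at its 124 nt decoy exon in intron 2 (chr20:2467192-2467315) from 0.00884, 0.00717 and 0.0169 to 0.0408, 0.0792 and 0.0299 (log2 odds ratio 2.24, adjusted p = 1.79e-07).

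U2AF2, the subunit of U2AF that binds the polypyrimidine tract, included a 60 nt exon of intron 5 (chr19:55661771-55661830) at 0.0265, 0.0330 and 0.0441 in siNT against 0.105, 0.131 and 0.0886 in siNT/siUPF1 (adjusted p = 9.75e-05). PRPF38B was called at a 53 nt exon (0.0539 to 0.160, adjusted p = 0.022) and SNRNP70, a U1 snRNP protein, at a 60 nt exon (0.0239 to 0.0535, adjusted p = 0.0271), both with overlapping groups. SNRNP48, a protein of the minor U11/U12 snRNP, had the largest gain among called exons with an average of 50 or more reads and separate groups. Its 8 nt exon in intron 4 (chr6:7599673-7599680) was at 0.0581, 0.125 and 0.180 in siNT against 0.549, 0.807 and 0.446 in siNT/siUPF1, with a log2 odds ratio of 3.37 ± 0.81 (SE, adjusted p = 0.00558).

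In the hnRNP genes, whose proteins coat nascent RNA, 3 events rose and 5 fell of 185 (4.32%), in 5 of 25 genes. HNRNPH3 fell at its 139 nt exon 3 (chr10:68337858-68337996) from 0.906, 0.864 and 0.886 to 0.642, 0.577 and 0.778 (log2 odds ratio −1.96, adjusted p = 9.48e-08), and a 226 nt form of the same region fell from 0.845, 0.783 and 0.815 to 0.502, 0.435 and 0.664 (adjusted p = 8.85e-08). HNRNPM fell at its 53 nt exon 3 (chr19:8462529-8462581) from 0.978, 0.992 and 0.983 to 0.915, 0.827 and 0.935 (log2 odds ratio −3.02, adjusted p = 1.2e-06). Both genes showed separate groups, and skipping of HNRNPH3 exon 3 or HNRNPM exon 3 gives an early stop codon. HNRNPK at a 41 nt exon (0.992 to 0.956, adjusted p = 0.0214), HNRNPDL at a 105 nt exon (0.142 to 0.233, adjusted p = 0.0383, groups overlapping) and HNRNPD at a 147 nt exon with no early stop in either form (0.297 to 0.336, adjusted p = 0.037) moved less.

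The genes of the decay pathway itself had 4 events higher and 0 lower of 113 (3.54%), in 2 of 25 genes, MAGOHB and RNPS1. MAGOHB is a core protein of the exon junction complex, and 3 of its exons rose. The 366 nt exon of intron 1 (chr12:10612640-10613005) was at 0.0485, 0.0770 and 0.117 in siNT against 0.255, 0.352 and 0.163 in siNT/siUPF1 (log2 odds ratio 1.96, adjusted p = 5.56e-05). A 339 nt form of it rose from 0.101 to 0.287 and a 286 nt exon of intron 3 from 0.0531 to 0.124 (adjusted p = 0.00284). RNPS1, a peripheral protein of the same complex, rose at a 188 nt exon from 0.579, 0.623 and 0.693 to 0.826, 0.753 and 0.712 (adjusted p = 0.000477), with no overlap between groups. SMG5, an adaptor of the decay enzymes, had the lowest adjusted p of the members not called (0.904 to 0.736 at a 105 nt exon, adjusted p = 0.0738).

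RNA helicases had 4 events higher and 5 lower of 184 (4.89%), in 3 of 34 genes. DDX50, a nucleolar DEAD-box helicase, included a 112 nt exon of intron 1 (chr10:68906226-68906337) at 0.0715, 0.0578 and 0.145 in siNT against 0.361, 0.441 and 0.281 in siNT/siUPF1 (log2 odds ratio 2.57, adjusted p = 4.97e-06). DDX42, a helicase associated with the U2 snRNP, fell at exon 5 of 37 nt, from 0.915, 0.923 and 0.919 to 0.709, 0.721 and 0.915 (adjusted p = 0.00288), and there library 3 with siUPF1 stayed at the siNT level. DDX23, a tri-snRNP helicase, fell from 0.956 to 0.852 (adjusted p = 0.0354).

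Translation factors had 1 event higher and 3 lower of 308 (1.3%), in 3 of 38 genes, close to the share over all events. EIF3L, a subunit of initiation factor eIF3, fell at its 80 nt exon 4 from 0.971, 0.985 and 0.953 to 0.866, 0.835 and 0.923 (adjusted p = 4.27e-05). EIF4A2, an eIF4A helicase, fell at its 140 nt exon 4 (chr3:186784962-186785101) from 0.895, 0.869 and 0.930 to 0.759, 0.762 and 0.788 (adjusted p = 0.00609), and EIF4G1, the scaffold of eIF4F, rose at a 66 nt exon from 0.0479, 0.0679 and 0.101 to 0.209, 0.186 and 0.131 (adjusted p = 0.000477). None of these overlapped between groups. Ribosomal protein genes had 2 events higher and 4 lower of 339 (1.77%), in 2 of 58 genes. All were small in level, such as RPS2 at a 90 nt exon (0.947 to 0.971) and RPS3 at an 80 nt exon (0.987 to 0.974, adjusted p = 0.0303).

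Few events were called in the remaining lists, with shares on both sides of the 1.17% over all events. DNA repair genes had 1 event higher of 349 (0.287%), a 231 nt exon in intron 5 of XPA, a nucleotide excision repair protein (0.0553 to 0.176, adjusted p = 0.00436). The snoRNA host genes had 2 higher of 104 (1.92%), in SNHG6 (112 nt, 0.787 to 0.884, adjusted p = 0.0094) and in NOP56, a protein of box C/D snoRNPs. In NOP56 a 77 nt exon of intron 8 went from 0.384, 0.387 and 0.330 to 0.426, 0.460 and 0.542 (adjusted p = 0.0179). The m6A genes had 1 higher of 66 (1.52%), a 52 nt exon of the reader IGF2BP2 (0.0346 to 0.0931, adjusted p = 0.038, groups overlapping). The stress response genes had 1 higher and 1 lower of 57 (3.51%), in 1 of 17 genes. By the quasi-binomial test 0 of 34 splicing kinase and 0 of 56 O-GlcNAc pathway events were called. At an unadjusted p under 0.05 were 1 and 6 of them, against 3227 of all 28261 events.

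Outside these lists, some of the lowest adjusted p-values were those of UQCRH, RBX1 and SAT1. UQCRH, the hinge protein of mitochondrial complex III, rose at a 148 nt exon of intron 2 (chr1:46309897-46310044) from 0.0161, 0.0248 and 0.0222 to 0.0665, 0.0624 and 0.0498 (log2 odds ratio 1.53 ± 0.12, SE, adjusted p = 3.29e-12). RBX1, the RING subunit of cullin ubiquitin ligases, rose at a 160 nt exon (chr22:40955287-40955446) from 0.0483, 0.0321 and 0.0479 to 0.166, 0.258 and 0.150 (log2 odds ratio 2.40, adjusted p = 1.13e-06). SAT1, the spermidine and spermine acetyltransferase, rose at a 110 nt exon of intron 3 (chrX:23784294-23784403) from 0.135, 0.172 and 0.232 to 0.463, 0.662 and 0.306 (log2 odds ratio 2.19, adjusted p = 1.2e-06). In each of the 3 genes the groups were separate.

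Further exons with large gains lay in UBQLN4, a shuttle factor of the proteasome, from 0.273, 0.579 and 0.362 to 0.789, 0.725 and 0.909 (39 nt, adjusted p = 0.0164), and in FUCA2, a fucosidase, from 0.353, 0.154 and 0.154 to 0.704, 0.757 and 0.550 (173 nt, adjusted p = 0.0183). PPIE, a cyclophilin of the spliceosome, gained at a 135 nt exon that has no early stop in either form, from 0.306, 0.330 and 0.358 to 0.794, 0.578 and 0.728 (adjusted p = 0.0297). GS1124K5 rose from 0.352 to 0.692 at a 175 nt exon (adjusted p = 0.0214), and SAYSD1 from 0.237 to 0.514 at a 4407 nt exon (adjusted p = 0.0426).

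Large losses were found in AUP1, a protein of ER-associated degradation, from 0.577, 0.920 and 0.563 to 0.169, 0.204 and 0.302 (237 nt, adjusted p = 0.0102), and in SAFB2, a scaffold attachment factor, at the 511 nt exon 7 (chr19:5611120-5611630), from 0.714, 0.870 and 0.593 to 0.511, 0.261 and 0.339 (log2 odds ratio −2.21, adjusted p = 0.00395). PRMT5, the enzyme that symmetrically dimethylates arginines, fell at a 155 nt exon from 0.936, 0.982 and 0.972 to 0.598, 0.656 and 0.719 (log2 odds ratio −3.66, adjusted p = 0.00753). UPP1, a uridine phosphorylase, fell at a 115 nt exon from 0.621, 0.575 and 0.588 to 0.250, 0.301 and 0.377 (adjusted p = 0.000877). The groups were separate in all of these genes. Losses of the same order were called in MARS, the methionyl-tRNA synthetase (51 nt, 0.775 to 0.457, adjusted p = 0.02), AKR7A2, an aldo-keto reductase (97 nt, 0.911 to 0.636, adjusted p = 0.00955), ERAL1, a GTPase of mitochondrial ribosome assembly (47 nt, 0.751 to 0.477, adjusted p = 0.0273), and AURKB, the mitotic Aurora B kinase (185 nt, 0.898 to 0.629, adjusted p = 0.000353).

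The decoy exon of OGT in intron 4 (chrX:71546344-71546496) was at 0.543, 0.755 and 0.715 in siNT against 0.934, 0.778 and 0.893 in siNT/siUPF1 (0.671 ± 0.113 against 0.868 ± 0.081, SD, n = 3 each). Its groups did not overlap, yet the change did not pass the threshold, with a log2 odds ratio of 1.55 ± 0.53 (SE, adjusted p = 0.143, exact permutation p = 0.1). The study, by its own rMATS comparison, reports a significant rise of OGT decoy inclusion with UPF1 knockdown alone. The result here comes from another test, adjusted over all exon events. In the quasi-binomial fit without siNT/siUPF1 library 2, the lowest of its group, the log2 odds ratio was 2.23 and the adjusted p 0.041. That is the largest estimate among the fits that left out 1 library, whose range is given below. Mean scaled inclusion reads were close, 168 in siNT and 181 in siNT/siUPF1 (log2 change 0.11), while skipping reads went from 32.0 to 10.6 (−1.55). Reads inside the exon count as inclusion, and RNA that keeps all of intron 4 holds them too. The study reports the decoy in few mature transcripts, so this level should not be read as a share of OGT mRNA.

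Retained introns changed at only 2 of 3034 events (0.0659%), 1 higher and 1 lower (0.033% each), and 14.5% of the events (440) had groups that did not overlap. Of intron events well read within a group, 52.4% in siNT and 58.0% in siNT/siUPF1 were matched. For exon events these shares were 78.2% and 78.0%. Unmatched introns were not tested, so that the count does not cover them. An intron of NTMT1, an N-terminal methyltransferase (chr9:129634222-129634370, 149 bp), was at 0.800, 0.792 and 0.868 in siNT against 1, 1 and 1 in siNT/siUPF1 (adjusted p = 0.00454), and since no spliced reads were left there, no fold is given. A 1066 bp intron of CREBZF, a bZIP transcription factor (chr11:85662458-85663523), fell from 0.554, 0.401 and 0.478 to 0.236, 0.238 and 0.266 (log2 odds ratio −1.42, adjusted p = 0.00124). At an unadjusted p under 0.05 there were 307 introns, and no list had a called intron by this test (0 to 13 per list at an unadjusted p under 0.05, most in the snoRNA host genes).

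Introns just outside the threshold lay in both directions. ACADVL, the very long-chain acyl-CoA dehydrogenase, was at 0.176 and 0.0473 for an 82 bp intron, and POLR2E, a subunit shared by the RNA polymerases, at 0.0214 and 0.069 for a 124 bp intron (adjusted p = 0.062 for each). The decay kinase SMG1 had an intron at 0.0709 and 0.00798 (adjusted p = 0.0917) and NOP56 a 185 bp intron at 0.0884 and 0.0561 (adjusted p = 0.107). Of 1934 introns whose retention gives an early stop codon, 37.6% were higher in siNT/siUPF1, with a median difference of −0.0036, against −0.0054 over all introns. The count of called introns went up to 13 without siNT library 2 and 15 without siNT/siUPF1 library 3.

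The reads at the most-read skipped exon event of each gene, scaled by the median of ratios, gave a measure of the level of 9158 genes, of which 260 changed (2.84%, limma, adjusted p of at most 0.05), 122 higher (1.33%) and 138 lower (1.51%). The groups did not overlap in 256 of them, where 25.8% of all genes did not overlap (2360). At an unadjusted p under 0.05 by limma there were 1995 of the 9158 genes, the background for the list counts below. The count is loose: it was 32, 165 and 801 without siNT library 1, 2 and 3, and 28, 97 and 102 without siNT/siUPF1 library 1, 2 and 3. Scaled by library totals, which moved the median of all genes by 0.14 on the log2 scale, 223 genes were higher and 70 lower. Reads at 1 exon event can also change with splicing alone.

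**Figure D3:**
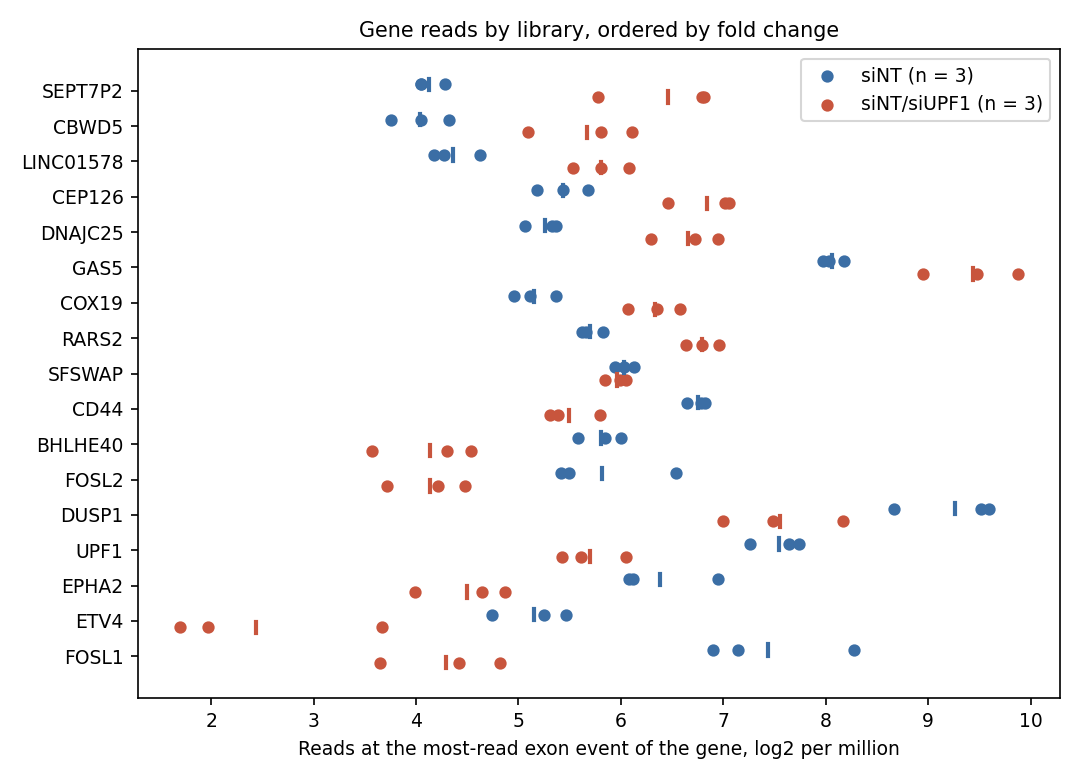
Reads at the most-read exon event of 17 genes (x axis, log2 RPM) in each siNT and siNT/siUPF1 library (points), ordered by fold change. GAS5 and SEPT7P2 lie higher in all libraries with siUPF1, FOSL1, ETV4 and UPF1 lower, and SFSWAP is mixed.

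The snoRNA host genes held the most calls of any list: 6 of 21 rose (28.6%, against 2.84% called over all genes) and 0 fell. Their median log2 fold change was 0.50, against 0.0017 over all genes. At an unadjusted p under 0.05 were 13 of them, against 1995 of all 9158 genes. GAS5, a host of box C/D snoRNAs whose short reading frame makes it a classical decay target, was at 8.18, 8.03 and 7.97 on the log2 RPM scale in siNT against 9.88, 9.48 and 8.95 in siNT/siUPF1, a log2 fold change of 1.38 ± 0.20 (SE, adjusted p = 0.00124). TAF1D, a subunit of an RNA polymerase I initiation factor whose gene hosts snoRNAs, was at 8.59, 8.60 and 8.59 against 9.85, 9.51 and 8.90 (log2 fold change 0.83, adjusted p = 0.032). SNHG1 was at 6.97, 7.27 and 7.59 against 8.52, 8.66 and 7.61 (0.98, adjusted p = 0.0289). In each host the libraries with siUPF1 lay above all siNT libraries, closest in library 3.

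SNHG6 was at 7.54, 7.31 and 6.72 on the same scale in siNT against 8.27, 8.05 and 7.86 in siNT/siUPF1 (log2 fold change 0.87, adjusted p = 0.0254). EPB41L4AAS1, an antisense host gene named here as the tables spell it, was at 5.94, 5.53 and 5.67 against 7.13, 7.13 and 6.33 (1.15, adjusted p = 0.00891), and its reads are uncertain where another gene overlaps on the opposite strand, since the use of strand in counting is not given in the sources used here. The pseudogene CCT6P1 was at 2.59, 2.96 and 2.93 against 4.86, 5.68 and 3.94 (2.00, adjusted p = 0.00495), and its reads cannot be told apart from those of its parent gene where the sequences are the same. Without 1 library, 1 (siNT/siUPF1 library 1 left out) to 7 hosts were called.

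**Figure D4:**
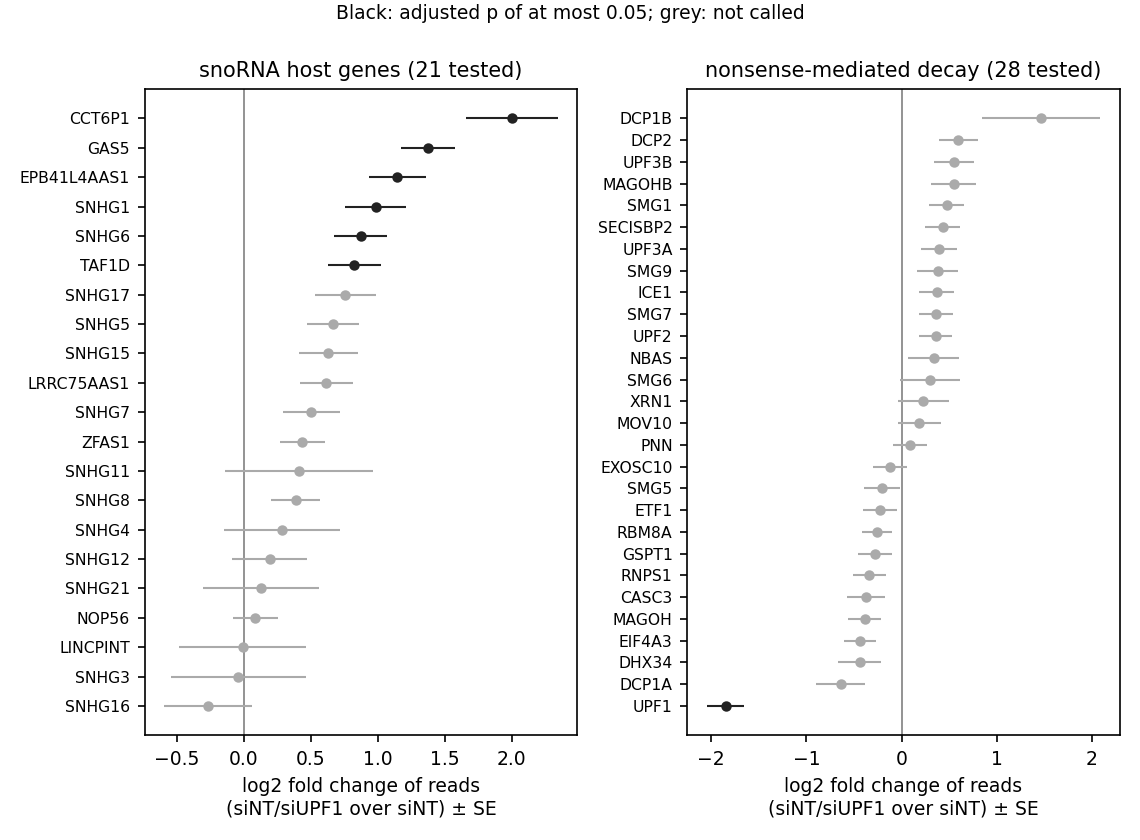
Log2 fold change of reads, siNT/siUPF1 over siNT, with its SE (x axis), for 21 snoRNA host genes and 28 genes of nonsense-mediated decay (y axis), in black where the adjusted p was at most 0.05. Of the hosts 6 were called, all higher, and of the decay genes UPF1 alone, lower.

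Genes of nonsense-mediated decay had a median log2 fold change of 0.21 over 28 members, and UPF1 was the only one called. At an unadjusted p under 0.05 were 11 of them, against 1995 of all 9158 genes. UPF1 was at 7.64, 7.74 and 7.26 on the log2 RPM scale in siNT against 5.43, 5.61 and 6.05 in siNT/siUPF1 (log2 fold change −1.85 ± 0.20, SE, adjusted p = 3.09e-05). The list's median was −0.02 when the most-read event with an inclusion level of at least 0.95 stood for each gene, so that no direction is given for it.

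By kind of gene, 13 of 103 pseudogenes rose and 0 fell (12.6%, median log2 fold change 0.56), as did 9 of 171 non-coding RNA genes with 2 lower (5.26% higher, median 0.29). Among 8840 protein-coding genes 99 rose (1.12%) and 136 fell (1.54%), with a median of −0.01 that turns positive with library totals. SEPT7P2, a pseudogene of the septin SEPT7, was at 4.04, 4.29 and 4.05 in siNT against 6.81, 6.79 and 5.78 in siNT/siUPF1 (log2 fold change 2.33, adjusted p = 3.09e-05). Pseudogene reads are uncertain, because their sequences are close to those of the parent genes. The pseudogene count ran from 1 to 22 and the non-coding count from 2 to 21 when 1 library was left out. Other genes among the largest gains were CBWD5 (log2 fold change 1.62), LINC01578 (1.45), CEP126 (1.41), DNAJC25, a J-domain cochaperone (1.40), COX19, an assembly factor of cytochrome oxidase (1.19), and RARS2, the mitochondrial arginyl-tRNA synthetase (1.09).

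Among the genes that fell most were FOSL1, ETV4 and DUSP1. FOSL1, an AP-1 subunit, was at 8.27, 6.90 and 7.14 on the log2 RPM scale in siNT against 4.42, 4.82 and 3.65 in siNT/siUPF1 (log2 fold change −3.15 ± 0.30, SE, adjusted p = 1.62e-05). ETV4, an ETS factor downstream of MAP kinase signalling, was at 5.47, 5.25 and 4.74 against 1.70, 3.67 and 1.97 (−2.71, adjusted p = 0.00124). DUSP1, a MAP kinase phosphatase, was at 9.59, 8.67 and 9.52 against 7.49, 8.17 and 6.99 (−1.71, adjusted p = 0.00148). The groups did not overlap in these 3 genes. EPHA2, an ephrin receptor (−1.88), FOSL2, another AP-1 subunit (−1.68), BHLHE40, a bHLH transcriptional repressor (−1.67), and CD44, the hyaluronan receptor (−1.26), were also called lower.

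Stress response genes had 3 lower and 0 higher of 26 (11.5%, against 2.84% called over all genes), with a median log2 fold change of −0.49. At an unadjusted p under 0.05 were 12 of them, against 1995 of all 9158 genes, and 0 to 7 were called when 1 library was left out. Without siNT library 1, the one farthest from siNT/siUPF1, the median was −0.32 and 0 were called, and 0 were called without siNT/siUPF1 library 1. GADD45B, a stress-induced growth regulator, was at 9.49, 8.83 and 9.55 in siNT against 8.08, 8.94 and 7.25 in siNT/siUPF1, with overlapping groups (log2 fold change −1.20, adjusted p = 0.0315). SLC7A5, an amino acid transporter, was at 7.74, 6.99 and 6.81 against 6.14, 6.30 and 5.63 (−1.16, adjusted p = 0.0132), and MTHFD2, a mitochondrial folate enzyme, changed by −0.66 (adjusted p = 0.0379). DNA repair genes had 3 higher of 69 (4.35%, among them FANCI, 0.69, and RAD50, 0.79). Of these, voom called 0, as did fits without siNT library 1 or 2 or siNT/siUPF1 library 1 or 2. Single members were called in the ribosomal (RPS19, −0.88), core spliceosome (SNRPC, −0.73), kinase (DYRK2, −1.48), m6A (YTHDF1, −0.85) and helicase lists (DDX50, 0.87). That was 1 of 72 (1.39%), 53 (1.89%), 14 (7.14%), 17 (5.88%) and 40 (2.5%) members tested, against 2.84% of all genes, and is no result about these lists.

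By limma 0 members of the SR (13 tested), hnRNP (26), other splicing regulator (55), O-GlcNAc (17) and translation (41) lists changed in reads. At an unadjusted p under 0.05 were 3, 6, 10, 4 and 7 of them, against 1995 of all 9158 genes. Their medians lay between −0.14 and −0.03 on the log2 scale, and all 5 changed sign with library totals. Leaving out 1 library moved the O-GlcNAc median to between −0.32 (siNT/siUPF1 library 2 left out) and 0.11 (library 1 left out), and the SR median up to 0.055 (siNT/siUPF1 library 1 left out), so that no direction is given for these lists. Of the 218 genes with a changed exon, 12 also changed in reads, among them SNHG6 and DDX50.

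**Figure D5:**
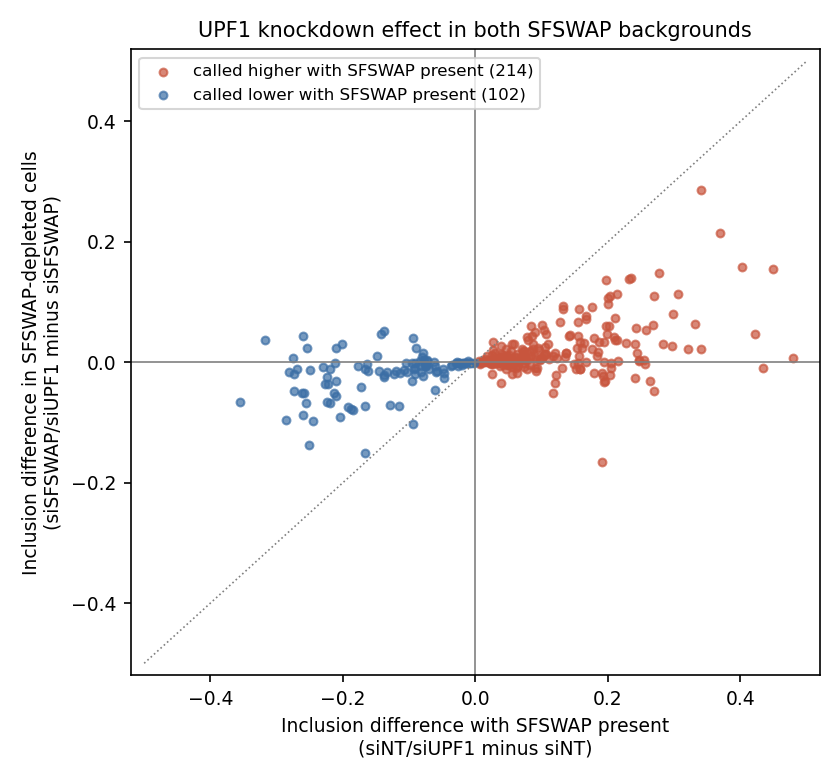
Difference in inclusion level with UPF1 knockdown in SFSWAP-depleted cells (y axis) against that with SFSWAP present (x axis), for the 214 higher and 102 lower exon events tested in both. Of these, 159 and 83 have the same sign, and the x values chose the events.

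The same knockdown in SFSWAP-depleted cells gave 21 called skipped exons of 25748 (0.0816%), 5 called retained introns of 3015 (0.166%) and 1 gene of 9158 called by reads (0.0109%), UPF1 itself. These comparisons share no libraries with the one above. The log2 fold change of UPF1 reads was −1.49 in SFSWAP-depleted cells, against −1.85 with SFSWAP present. Reads at skipped exon events ranged from 36947801 to 38860730 in siSFSWAP and from 25938092 to 32640317 in siSFSWAP/siUPF1. Whether knockdown depth or read depth has a part in the lower counts was not tested. Of the 332 exon events called with SFSWAP present, 316 were tested in SFSWAP-depleted cells. Among them 242 (76.6%) changed in the same direction, against 54.3% of the 20314 events tested in both. At an unadjusted p under 0.05 and in the same direction were 48 (15.2%), against 3.25% of all events, and 5 were called. The events were chosen on the first comparison, so that their smaller differences in the second are no finding.

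The 5 events called in both were in SRSF6 (268 nt, 0.236 to 0.349 in SFSWAP-depleted cells, adjusted p = 2.75e-05), UQCRH (148 nt, 0.0406 to 0.067, adjusted p = 6.12e-13, and 144 nt, 0.0168 to 0.0265), RNPS1 (188 nt, 0.680 to 0.773, adjusted p = 5.01e-05) and ALDOA, a glycolytic aldolase, whose 52 nt exon was lower in both (0.486 to 0.392 with SFSWAP present, where its groups overlapped). Means of other exons with an early stop when included were 0.0063 and 0.00864 in SFSWAP-depleted cells without and with siUPF1 for SNRPB, 0.088 and 0.116 for SAT1, 0.260 and 0.307 for LUC7L at 70 nt, and 0.148 and 0.155 for SNRNP48, and none of these was called. Among exons with an early stop when included 56.3% were higher there, among those with no early stop 54.4%, and among those with an early stop when skipped 48.2%.

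The difference between both backgrounds was tested directly in a fit of all 12 libraries. It passed at 3 of 38928 skipped exon events (0.00771%) and 1 of 3435 retained introns (0.0291%). These calls rest on the estimate of the spread: limma and the own dispersion of each event called 0 exons and 0 introns, and the larger of both dispersions called 0 exons. They were the SNRPA1 exon, the SRRM1 exon, the RBX1 exon and the CREBZF intron, all of which moved with SFSWAP present and had closer means in SFSWAP-depleted cells (SNRPA1 0.893 and 0.874). For reads per gene, 239 of the 260 called genes had the same sign in both backgrounds, against 68.6% of all genes. limma called 0 genes different between the backgrounds, with 608 at an unadjusted p under 0.05. The drop of FOSL1 was −0.84 in SFSWAP-depleted cells and that of ETV4 −0.07.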

How the data were processed

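Libraries of polyA RNA from 293A-TOA cells were sequenced as single-end reads. The authors trimmed reads with cutadapt 1.9.1, aligned them with STAR 2.7 to GRCh38.p8 with predicted decoy exons added, and counted events with rMATS, separately without and with siUPF1. The deposited values are read counts of each form per event, 3 libraries joined in 1 cell with no replicate number. The groups of each side follow the authors' difference, siNT minus siSFSWAP. The authors' p-values, FDR and differences were not used.

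Events were matched on gene symbol, strand and all coordinates. Inclusion and skipping reads were compared by a quasi-binomial F test on the deviance, with the Pearson dispersion moderated by limma 3.58.1 (prior 2.74 for exons, 2.35 for introns), floored at 1, and Benjamini-Hochberg adjustment over all events tested. Gene reads were tested by limma with a trend on log2 RPM with a pseudocount of 0.5. It was used in place of a planned count model, which was not run, since count tools were kept to files deposited as single count columns. Tests are two-sided. The p-values of events and genes rest on the spread between the biological replicates, moderated toward that of the other events or genes. For exons the shared prior had 36.8 degrees of freedom and outweighed the spread of the single event. The 110 nt SAT1 exon, with an own dispersion of 81.9, was tested with 10.5. Early stop codons were read from GENCODE 44 and GRCh38, and gene kinds from RefSeq names, which 44 genes did not match. R 4.3.3, data.table (1.17.8), Python 3.11.15, matplotlib 3.10.9, pandas 2.3.3, scipy 1.17.1 and numpy 2.4.6 were used, and the test was tried on simulated data.

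The members and the gene lists were chosen with earlier results of these data known. The genes named were UPF1, SFSWAP and OGT, the 10 exons and 8 introns with the largest changes in each direction (called, averaging 50 or more reads, with separate groups), the 6 lowest p per type, the 4 members of each list with the lowest p, every called SR and decay member, 8 genes in each direction by reads, called snoRNA host and stress genes, and the 4 events per type with the lowest p for the difference between backgrounds; the other exons shown, such as ALDOA, and single list members called by reads were added after their values were seen. Alternatives were filters, limma on the log2 odds, other dispersions, 1 event per exon, size limits, other read measures and leaving out each library; scaling by library totals, voom and leaving out libraries for lists and stop codon classes were added after the data were seen. Some members of these lists and calls are not reported here.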

Additional observations from a re-analysis of the deposited data

Results flagged for a closer look

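The UPF1 knockdown effect passed a test of difference between cells with SFSWAP present and SFSWAP-depleted cells at 3 exons and 1 intron, by the comparison of the difference of log2 odds ratios (SFSWAP-depleted minus SFSWAP present) in a fit of all 12 libraries with the moderated dispersion. limma and each event's own dispersion called 0 exons (2234 and 2230 at an unadjusted p under 0.05) and 0 introns (211 and 187), the larger of both dispersions 0 exons (2147), and a filter of 30 reads 1 exon. The SNRPA1 exon went from 0.922 to 0.648 with SFSWAP present and from 0.893 to 0.874 in depleted cells, a difference of 2.52 (adjusted p = 0.00117). The SRRM1 exon went from 0.0550 to 0.175 and from 0.0977 to 0.0625, a difference of −2.52 (adjusted p = 0.00807). The RBX1 exon went from 0.0428 to 0.191 and from 0.0456 to 0.0426, a difference of −2.56 (adjusted p = 0.0216). The CREBZF intron went from 0.478 to 0.247 and from 0.199 to 0.224, a difference of 1.65 (adjusted p = 0.000128). The events with the next lowest p did not pass, among them the 144 nt UQCRH exon (−1.04, adjusted p = 0.223) and introns of HNRNPA1 (adjusted p = 0.057), MSTO1 (0.203) and HMGCS1 (0.27).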

How the results depend on the processing

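No paired analysis was possible because the tables join 3 values per group without replicate numbers. Against 332 skipped exon calls, there were 58 with a filter of 30 reads, 70 with no filter, 42 with the larger of both dispersions, 170 and 83 with a difference of at least 0.1 and 0.2, and 129 to 615 when 1 library was left out; limma on the log2 odds (pseudocount 0.5 or 1, 2390 and 2497 at an unadjusted p under 0.05) and each event's own dispersion (1738) called 0. In SFSWAP-depleted cells the 21 exons became 4 with a filter of 30 reads, 3 with the larger dispersion and 0 with limma (1255) and the own dispersion (662), and the 3 exons that differed between backgrounds became 1, 0 (2147), 0 (2234) and 0 (2230). Retained introns numbered 1 with limma at either pseudocount, 0 with the own dispersion (156), 4 with a dispersion trend, 1 with a difference of at least 0.2 and 2 to 15 when 1 library was left out. In depleted cells the 5 introns became 2 with a filter of 30 reads, 1 with the larger dispersion and 0 with limma (139) and the own dispersion (70), and the 1 intron that differed between backgrounds became 0 with limma (211) and the own dispersion (187). Gene reads gave 28 to 801 calls when 1 library was left out, 186 with voom, 390 with summed events and 293 with library totals, and the planned count model was not run. Exons moving toward their stop codon numbered 44 with a filter of 30 reads and 91 to 464 without 1 library. The log2 odds ratio of the OGT decoy was 1.18 to 2.23 without 1 library. OGT reads changed sign, to 0.11 with library totals and between −0.16 and 0.086 without 1 library, as did SFSWAP reads, 0.066 with library totals and 0.068 with the most-read event of at least 0.95. None of the 86 named exons reversed under any setting run. The cause of these shifts was not tested.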

Other observations

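Of the 72 genes with more than 1 called exon event, 5 had events in both directions, among them FUCA2, RBM39, SAT1 and UPP1. In UPP1 a 47 nt exon rose from 0.122 to 0.363 (adjusted p = 0.00113, quasi-binomial test) while the 115 nt exon fell.

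The 6 called events that moved away from the form with the early stop codon were in C1orf35 (0.635 to 0.891), EIF3L at a 77 nt form of exon 4 (0.920 to 0.701), PFDN5 (0.884 to 0.806), PKM (0.0249 to 0.0142), SLMO2ATP5E (0.880 to 0.742) and UQCRB (0.0213 to 0.0115). These were named after their values were seen. The predicted class depends on the coding transcript chosen. For EIF3L, PFDN5 and SLMO2ATP5E that transcript lacked the exon, although the exon was mostly included in siNT.

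The genes called both at an exon and by reads numbered 12, among them ADRM1, SNHG6, ANKRD11, UBE2D3, DDX50, USMG5, SLMO2ATP5E, RPS6KB2, DNAJC25, PARP6 and CCDC53.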
